A study of Mus musculus with 55 samples.

Results

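Hepatic stellate cells (HSC) and Thy1 cells sorted from normal mouse liver were compared across all genes, using 4 of the 55 RNA-sequencing libraries of the study, 2 for each sort. The mice were of the C57B/L6 strain, and both groups carry the tissue label liver and the treatment label normal. For reference there were 8 other sorts of normal liver: BEC (biliary cells), cBEC (clonal biliary cells), NPD (ducts without progenitor activity), EC (endothelial cells), LSEC (sinusoidal endothelial cells), KC (Kupffer cells), HC (hepatocytes) and blood cells. The same 2 sorts taken after partial hepatectomy (PH, surgical removal of part of the liver), with 3 HSC and 2 Thy1 libraries, served as libraries that the normal comparison does not use. Age, sex, the animals or pools behind each library, the sort markers and the time after PH are not given in the labels. Every p-value therefore rests on the spread between libraries, which may be technical. In the main fits that spread is pooled over all sorts in the fit and does not come from HSC and Thy1 alone. Levels are FPKM, fragments scaled to transcript length and library size, and the read depth behind them is unknown. Of 24478 gene symbols, 13229 with at least 1 FPKM in at least 2 of the 4 libraries were tested.

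Stellate cells are the vitamin A-storing pericytes of the liver sinusoid. They lie between the endothelium and the hepatocytes, esterify retinol through Lrat, and are known as a source of hepatocyte growth factor and, after injury, of scar matrix. Thy1 is a surface glycoprotein of fibroblasts around the portal tract and the liver capsule, and also of T cells, some endothelial cells and neurons. A Thy1 sort can therefore hold portal fibroblasts together with mesothelial cells, which cover the liver surface, with duct cells and with vessel cells. The comparison asks which mesenchymal genes separate the sorts, and which of the differences lie in genes of those other cells.

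The libraries differed in quality measures, both between and within the sorts. The share of tested genes listed at 0 was 12.9% and 8.76% in the HSC libraries and 0.431% and 0.280% in the Thy1 libraries. The mean variance between replicates on the log2(FPKM + 1) scale was 0.387 in HSC and 0.222 in Thy1, against 0.0342 to 0.214 in the other normal sorts. Replicates correlated across genes at r = 0.923 (HSC) and 0.958 (Thy1). Each Thy1 library correlated at 0.935 to 0.940 with the NPD libraries and at 0.832 to 0.859 with the HSC libraries. HSC library 2 held more Kupffer and endothelial RNA than HSC library 1, Thy1 library 2 more duct RNA than Thy1 library 1, and Thy1 library 1 more lymphatic endothelial RNA, with the values given below.

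Over all tested genes, 4870 (36.8%) differed between the sorts at an adjusted p under 0.05 (limma, all 27 normal libraries in the fit). Of these, 990 (7.48% of genes tested) were higher in HSC and 3880 (29.3%) were higher in Thy1. The median difference of all genes, HSC minus Thy1, was -0.37 on the log2(FPKM + 1) scale. List medians below are read beside it, and list counts beside the 7.48% and 29.3%. This split depends on scaling: after quantile normalization (36.4% called), with a median of 0.08, 2349 genes (17.8%) were higher in HSC and 2461 (18.6%) in Thy1, and after upper-quartile scaling (34.2% called), with a median of -0.03, 1721 (13%) and 2807 (21.2%). Where only the 4 libraries entered the fit, so that the spread came from them alone, 1263 genes passed (9.55%), 317 (2.4%) higher in HSC and 946 (7.15%) in Thy1. With library weights estimated per sort, 2273 genes passed (17.2%), 449 (3.39%) higher in HSC and 1824 (13.8%) in Thy1.

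The genes that mark the 2 sorts were read first. Lrat, which makes retinyl esters (table coordinates chromosome 3, 82696503 to 82707896), stood at 295 and 538 FPKM in the HSC libraries and at 1.93 and 2.26 in the Thy1 libraries. Reln, the secreted glycoprotein reelin (chromosome 5, 21390271 to 21850523), stood at 536 and 848 in HSC and at 202 and 8.24 in Thy1. Both were above every Thy1 library in both HSC libraries, but Thy1 library 1 held much more Reln than Thy1 library 2. Dpt, the matrix protein dermatopontin (chromosome 1, 166726862 to 166754397), was at 610.2 and 1072 FPKM in Thy1 and at 0.573 and 1.36 in HSC. Thy1 itself, for which the sort is named (chromosome 9, 43851466 to 43856662), was at 377 and 85.7 FPKM in Thy1 and at 0.805 and 3.51 in HSC. These levels match the labels of all 4 libraries. The log2 difference was 7.01 (SE 0.39, adjusted p 9.9e-12) for Lrat, 3.96 (SE 0.92, adjusted p 0.0016) for Reln, -8.71 (SE 1.06, adjusted p 1.1e-06) for Dpt and -5.99 (SE 0.73, adjusted p 9.4e-07) for Thy1. Reln lost the call without Thy1 library 2 (adjusted p 0.092) and in the fit of the 4 libraries alone (adjusted p 0.17), and with library weights it stood at 0.093.

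**Figure D1:**
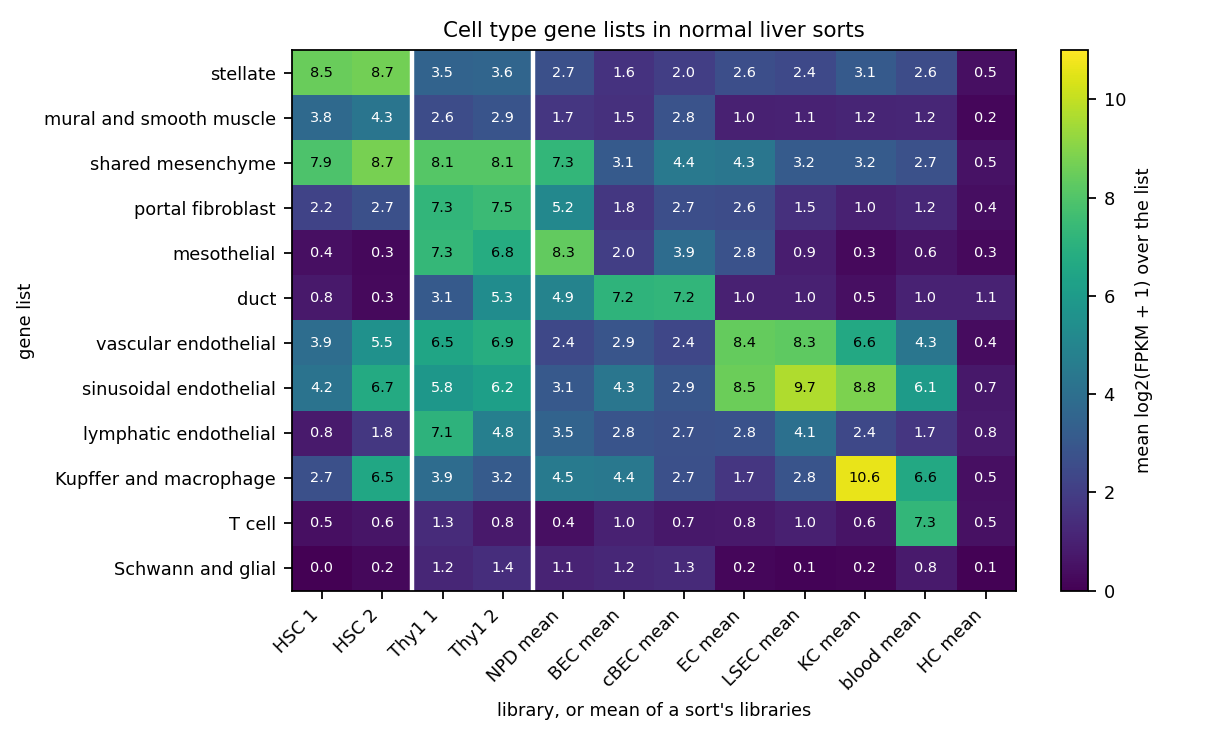
Mean log2(FPKM + 1) over each cell-type gene list (rows) in each normal HSC and Thy1 library and in the mean of each other normal sort (columns), with the value printed in each cell. The stellate list averages 8.50 and 8.67 in the HSC libraries against 3.51 and 3.58 in Thy1, and the mesothelial list 7.32 and 6.83 in Thy1 against 0.45 and 0.25 in HSC.

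The stellate genes were higher in HSC almost throughout. Of 19 stellate genes, all tested, 17 were called higher in HSC and 0 higher in Thy1, against 7.48% and 29.3% of all genes, and their median difference was 5.64. In the fit of the 4 libraries alone 15 passed, all higher in HSC. Summed over the list, the HSC libraries held 13676 and 15390.5 FPKM and the Thy1 libraries 719 and 687. In bulk libraries fewer cells of a type and less RNA per cell cannot be told apart, here and below. The NPD sort held 646 FPKM of the list, close to the Thy1 libraries.

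Genes for 3 secreted ligands were among those called higher in HSC. Bmp10, a ligand of the ALK1 receptor on endothelium, was at 242 and 222 FPKM in HSC and at 0.118 and 0.145 in Thy1. Gdf2, which encodes the related ligand BMP9, was at 789 and 838 in HSC and at 23.2 and 20.6 in Thy1. Hgf, the growth factor that acts on hepatocytes through Met, was at 816 and 532 in HSC and at 5.33 and 4.51 in Thy1. In all 3 genes both HSC libraries were far above both Thy1 libraries. The log2 differences were 7.68 for Bmp10 (SE 0.39, adjusted p 2.8e-12), 5.16 for Gdf2 (SE 0.51, adjusted p 4.7e-08) and 6.80 for Hgf (SE 0.40, adjusted p 2.1e-11). Gdf2 was not equally low in all other sorts, with a mean of 67.5 FPKM in NPD.

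The collectins Colec10 and Colec11, which bind sugars and start the lectin pathway of complement, were among the most abundant genes that separated the sorts. Colec11 stood at 3107 and 2354 FPKM in HSC and at 18.1 and 20.3 in Thy1. Colec10 stood at 554 and 889.5 in HSC and at 2.30 and 4.59 in Thy1. Ecm1, a secreted matrix protein, was the highest member in HSC, at 4292 and 6267, and was at 244 and 290.5 in Thy1. Its difference was 4.28 (adjusted p 3.6e-07), so it was far from absent in the Thy1 sort.

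Receptor genes of the list were also separated without overlap. Ngfr, the p75 neurotrophin receptor, was at 342 and 278 FPKM in HSC and at 3.15 and 1.59 in Thy1. Pth1r, the parathyroid hormone receptor, was at 562 and 453 against 4.998 and 5.92. Vipr1, a receptor for vasoactive intestinal peptide, was at 292 and 481 against 1.51 and 7.49. The endothelin receptor Ednrb was higher in both HSC libraries, at 609 and 356 against 33.7 and 103, but did not pass (difference 2.95, adjusted p 0.073), and its mean in EC was 687.

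Transcription factors of the list showed the same separation. Lhx2, a LIM homeodomain factor needed to keep stellate cells quiescent, was at 87.2 and 179 FPKM in HSC and at 0.278 and 0.726 in Thy1 (difference 6.41, SE 0.33, adjusted p 3.4e-12). Hand2, a basic helix-loop-helix factor, was at 223 and 241 in HSC and at 10.9 and 9.14 in Thy1 (difference 4.41, adjusted p 4.4e-08). A smaller difference was found for Des, the muscle filament desmin, at 42.0 and 103 against 8.15 and 7.64 (difference 2.91, adjusted p 0.0012). Des did not pass with library weights (adjusted p 0.075). Adamtsl2, a matrix regulator of TGF-beta, passed at 2.44 (adjusted p 0.015) but not without Thy1 library 2 (0.090) or HSC library 1 (0.074). Cygb, a globin used as a stellate marker, was at 179 and 163 in HSC and at 117 and 128 in Thy1. It did not pass (difference 0.48, SE 0.57, adjusted p 0.57), and its mean in NPD was 136.

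Because Lhx2 was high in the HSC libraries and under 1 FPKM in both Thy1 libraries, the promoters of the stellate genes were searched for TAATTA, the core that LIM homeodomain proteins bind, which reads the same on both strands. Promoters were taken from RefSeq on GRCm38.p6, from 250 bases before to 50 bases after the start of the gene, and this build is not the one named for the deposited table. Of 16 stellate genes with a promoter entry, 3 held the motif, against 6.12% of 27025 genes with an entry. Among the other lists, 2 of 11 duct genes, 1 of 6 mesothelial genes and 0 of 10 portal fibroblast genes held it. The 3 stellate promoters are shown on the strand of the gene, with the motif in capitals, to let its position be compared. A match is a description of the letters and not a bound site.
Hand2, chr8:57320733-57321032, plus strand: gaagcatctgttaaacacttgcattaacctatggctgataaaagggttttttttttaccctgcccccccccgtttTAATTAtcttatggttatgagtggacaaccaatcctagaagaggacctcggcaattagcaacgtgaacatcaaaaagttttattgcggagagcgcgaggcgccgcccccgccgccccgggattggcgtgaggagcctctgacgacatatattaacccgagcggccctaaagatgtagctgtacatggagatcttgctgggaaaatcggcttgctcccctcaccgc
Pth1r, chr9:110747096-110747395, minus strand: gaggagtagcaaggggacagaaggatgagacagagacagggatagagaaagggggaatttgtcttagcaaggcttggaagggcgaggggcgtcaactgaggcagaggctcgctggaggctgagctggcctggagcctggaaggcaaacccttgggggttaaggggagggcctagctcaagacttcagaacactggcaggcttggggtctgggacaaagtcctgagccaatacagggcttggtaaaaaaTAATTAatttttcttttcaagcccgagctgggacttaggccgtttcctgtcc
Gdf2, chr14:33940789-33941088, plus strand: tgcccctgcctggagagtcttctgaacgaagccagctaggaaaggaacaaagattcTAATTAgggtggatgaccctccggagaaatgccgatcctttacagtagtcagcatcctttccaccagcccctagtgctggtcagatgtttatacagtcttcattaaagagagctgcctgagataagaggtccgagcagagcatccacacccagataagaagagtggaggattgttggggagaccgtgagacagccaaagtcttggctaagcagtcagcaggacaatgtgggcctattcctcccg

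Outside the list, a further group of genes was at least 2 times higher in HSC than in every other normal sort. Among the largest differences, Nr1h5, the bile-acid-receptor relative FXR-beta, was at 308 and 176 FPKM in HSC and at 0.0645 and 0.799 in Thy1. Adamts13, the protease that trims von Willebrand factor, was at 217 and 169 in HSC and at 0.118 and 0.343 in Thy1. Rgs4, a brake on G-protein signalling, was at 167 and 98.7 against 0.106 and 0.134. Lama1, a laminin alpha chain, was at 92.9 and 140.5 against 0.225 and 0.197, and Adra2b, an adrenergic receptor, at 165 and 160.4 against 1.03 and 0.577. The 5 log2 differences lay between 6.52 and 7.40, with no overlap of libraries in any.

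Genes of mural cells, the pericytes and smooth muscle of vessels, were higher in HSC wherever they were called. Of 15 genes 12 were tested, 6 were called higher in HSC and 0 higher in Thy1, and the median difference was 1.796. Of these 6, 4 are genes of pericytes. Rgs5 was at 569 and 889 FPKM in HSC and at 6.24 and 37.1 in Thy1. Abcc9 and Kcnj8, the 2 subunits of a vascular potassium channel, were at 429.9 and 508 and at 178 and 177 in HSC, against 18.1 and 17.6 and 9.27 and 6.03 in Thy1. Notch3, the receptor that shapes vessel mural cells, was at 43.9 and 31.7 against 0.859 and 3.39. Of the contractile smooth-muscle genes, Tagln was called at 202 and 392 against 29.0 and 70.8 (adjusted p 0.010), but not without Thy1 library 1 (0.11) or HSC library 2 (0.082) or in the fit of the 4 libraries alone (0.059). Acta2, smooth-muscle actin and the classic mark of activated stellate cells, was at 6.66 and 58.7 in HSC and at 36.4 and 35.9 in Thy1, where the libraries overlapped (adjusted p 0.59). Cnn1 was listed at 0 in both HSC libraries and stood at 1.56 and 1.97 in Thy1 (adjusted p 0.053).

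Genes that mesenchymal cells share were present in both sorts, in different proportions. Of 14 such genes 5 were higher in HSC and 2 higher in Thy1, with a median of 0.12. The platelet-derived growth factor receptor Pdgfrb was at 261 and 228 FPKM in HSC and at 16.4 and 16.6 in Thy1 (difference 3.81, SE 0.61, adjusted p 3.1e-05). Its partner Pdgfra was at 99.4 and 121 against 39.1 and 39.3 (difference 1.46, SE 0.51, adjusted p 0.027), a call lost when any 1 of the 4 libraries was left out (adjusted p 0.057 to 0.096), with library weights (0.38) or with a pseudocount of 0.1 (0.27). Within each library, Pdgfrb was therefore 263% and 189% of Pdgfra in HSC and 41.8% and 42.3% of it in Thy1, so the order of the 2 receptors was opposite in the 2 sorts of normal liver. After PH it was 44.6%, 52.3% and 127% in HSC and 24.5% and 79.4% in Thy1, so 2 of the 3 HSC libraries then had the order of Thy1. No test was made of this ratio.

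The matrix genes of that list moved in both directions. Dcn, the proteoglycan decorin, was the most abundant, at 14625 and 10062 FPKM in HSC and at 2253 and 3065 in Thy1 (difference 2.21, adjusted p 0.040). The call for Dcn was lost when any 1 library was left out (adjusted p 0.060 to 0.17) after quantile normalization (difference 1.18, adjusted p 0.31) and with a pseudocount of 0.1 (0.12). Bgn, the related biglycan, was at 2692 and 3191 against 814 and 909.7 (difference 1.77, adjusted p 0.00063). Col1a1, the main chain of type I collagen, was at 16.1 and 93.9 in HSC and at 414 and 339 in Thy1 (difference -3.22, SE 1.07, adjusted p 0.021), a call lost without HSC library 1 (adjusted p 0.26), without Thy1 library 1 (0.086) or without Thy1 library 2 (0.070). Its partner chain Col1a2 stood at 299 and 437 against 518 and 486 (adjusted p 0.76), and Col3a1 at 396 and 1186 against 1059 and 937, where the sorts overlapped. As a share of Dcn in the same library, Col1a1 was 0.110% and 0.933% in HSC and 18.4% and 11.1% in Thy1. Vim, the intermediate filament vimentin, was higher in Thy1, at 1816 and 1489 against 241 and 373 (difference -2.45, adjusted p 0.0041), with a mean of 2199 in NPD. With library weights none of these 4 called genes passed, at adjusted p 0.068 for Bgn, 0.15 for Vim, 0.32 for Col1a1 and 0.49 for Dcn.

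**Figure D2:**
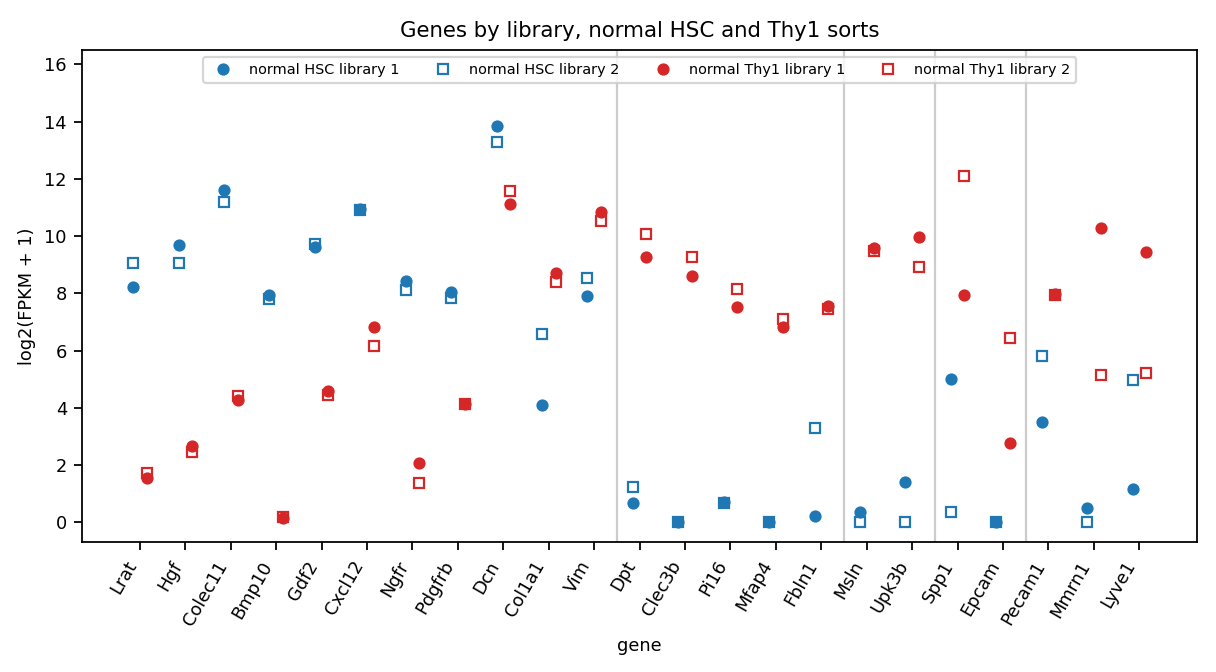
Level of 23 genes, as log2(FPKM + 1), in the 2 HSC libraries (blue) and the 2 Thy1 libraries (red), with grey lines between stellate and shared, fibroblast, mesothelial, duct and endothelial genes. Bmp10 and Clec3b are near or at 0 in one sort and high in the other, whereas Spp1, Epcam, Mmrn1 and Lyve1 differ strongly between the 2 Thy1 libraries.

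The portal fibroblast genes were higher in Thy1. Of 19 genes, all tested, 16 were called higher in Thy1 and 0 higher in HSC, with a median of -5.18, and 14 passed in the fit of the 4 libraries alone. Summed over the list, the Thy1 libraries held 4624 and 5781 FPKM, the HSC libraries 714 and 713, and NPD 4420.4. The NPD sort thus held about as much of the list as the Thy1 sort, and a high level in Thy1 over HSC does not by itself set a gene apart from NPD.

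A subset of these genes was far higher in Thy1 than in NPD or any other sort. Dpt had a mean of 3.58 FPKM in NPD, against 610.2 and 1072 in the Thy1 libraries. Pi16, a marker of adventitial fibroblasts, was at 185 and 286 in Thy1, at 0.644 and 0.589 in HSC and at 1.21 in NPD. Mfap4, a microfibril protein, was at 112 and 135 in Thy1, listed at 0 in both HSC libraries, and at 1.93 in NPD. Col15a1, a collagen of vessel and portal basement membrane, was at 25.1 and 33.0 in Thy1, at 0 and 0.261 in HSC and at 0.446 in NPD. In these 4 genes both Thy1 libraries stood far above the NPD mean. The differences from HSC were -8.71 for Dpt, -7.16 for Pi16 (adjusted p 2.3e-09), -6.96 for Mfap4 (adjusted p 7.4e-07) and -4.73 for Col15a1 (adjusted p 1.7e-07).

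Other members were also high in NPD. Clec3b, the plasminogen-binding protein tetranectin, was at 388 and 610.4 FPKM in Thy1, listed at 0 in HSC, and at 189.5 in NPD (difference from HSC -8.93, SE 0.65, adjusted p 5.4e-10). Its Thy1 mean was 263% of NPD. The elastic-fibre gene Fbln1 was at 187 and 173 in Thy1, at 0.150 and 8.80 in HSC and at 118 in NPD. Gli1, the hedgehog target that marks perivascular mesenchyme, was at 14.7 and 21.9 in Thy1, at 0 and 0.528 in HSC and at 21.8 in NPD. Eln, which encodes elastin, was at 254 and 189 in Thy1, at 12.6 and 36.4 in HSC and at 220.0 in NPD (difference -3.28, adjusted p 0.0088), a call lost without Thy1 library 1 (adjusted p 0.053), without HSC library 1 (0.10) or with library weights (0.18). Igfbp6, the largest difference of the list at -9.65 (adjusted p 3.7e-08), stood at 1107 and 1236 in Thy1 and at 1.11 and 0 in HSC, but its mean in NPD was higher still, at 2762.

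Of the 3 members without a call, Lum, the collagen-binding lumican, stood higher in HSC. It was at 539 and 436 FPKM in HSC and at 147 and 247 in Thy1 (difference 1.34, adjusted p 0.22). Fbn1, the fibrillin of microfibrils, was at 42.9 and 105 against 191 and 162 (adjusted p 0.19), and Smoc2 at 63.5 and 46.5 against 117 and 70.4 (adjusted p 0.44). Tnxb, a tenascin, passed at -1.78 (adjusted p 0.036) with 22.9 and 49.7 in HSC and 115 and 122 in Thy1. It lost the call without Thy1 library 1, Thy1 library 2 or HSC library 1 (adjusted p 0.093, 0.13 and 0.26) after quantile normalization (0.054) or upper-quartile scaling (0.099), and with library weights (0.31).

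Beyond the list, the genes at least 2 times higher in Thy1 than in every other normal sort included genes for enzymes and secreted factors. Ptgs2, the prostaglandin synthase COX-2, was at 75.3 and 83.2 FPKM in Thy1 and at 0.1003 and 0 in HSC. Penk, the enkephalin precursor, was at 52.2 and 113 in Thy1 and listed at 0 in HSC. Sfrp1, a secreted Wnt antagonist, was at 80.1 and 40.7 against 0.503 and 0.121. Fndc1 was at 206 and 191 against 0.332 and 2.18, and Mmp3, the protease stromelysin, at 43.0 and 48.5 in Thy1 against listed values of 0 in HSC. The imprinted RNA H19 was at 54.7 and 30.7 in Thy1 and listed at 0 in HSC.

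Mesothelial genes were high in both Thy1 libraries and at or near 0 in HSC. All 10 mesothelial genes tested were higher in Thy1, under each scaling, in the fit of the 4 libraries alone and with each library left out, with a median difference of -7.90. Of 12 names on the list, Calb2 was listed at 0 in all 4 libraries and 1 was not found in the table. Msln, the surface protein mesothelin, was at 770.3 and 715 FPKM in Thy1 and at 0.279 and 0 in HSC. Upk3b, a uroplakin of the mesothelium, was at 1005 and 480.0 against 1.64 and 0. Wt1, the factor that marks mesothelium in the liver, was at 66.6 and 34.1 against 0.624 and 0.864. The list summed to 3810.5 and 2676 FPKM in Thy1, to 4.66 and 3.58 in HSC and to 8238 in NPD, the highest of the other sorts.

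The level in NPD was used to set mesothelial genes apart from fibroblast genes in the Thy1 sort, a comparison chosen after the values were seen. Over the 10 mesothelial genes, the Thy1 mean was 32.2% to 43.1% of the NPD mean, with a median of 40.4%. By library the range was wider, at 34.0% to 59.1% in Thy1 library 1 and 20.8% to 43.7% in Thy1 library 2. A gene just above the band of means is therefore not set apart from the mesothelial genes. Of the 16 portal fibroblast genes called higher in Thy1, 15 lay above that band and 1, Igfbp6 at 42.4%, lay within it. The fibroblast genes ranged up to 23474% (Dpt), and 8 of the 16 were at 200% or more. A gene inside the band has the same ratio between the 2 sorts as the mesothelial genes, and the cells that hold it cannot be told apart from these values. Of the 865 genes called higher in Thy1 and highest otherwise in NPD, 153 lay within the band, 677 above and 35 below.

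**Figure D3:**
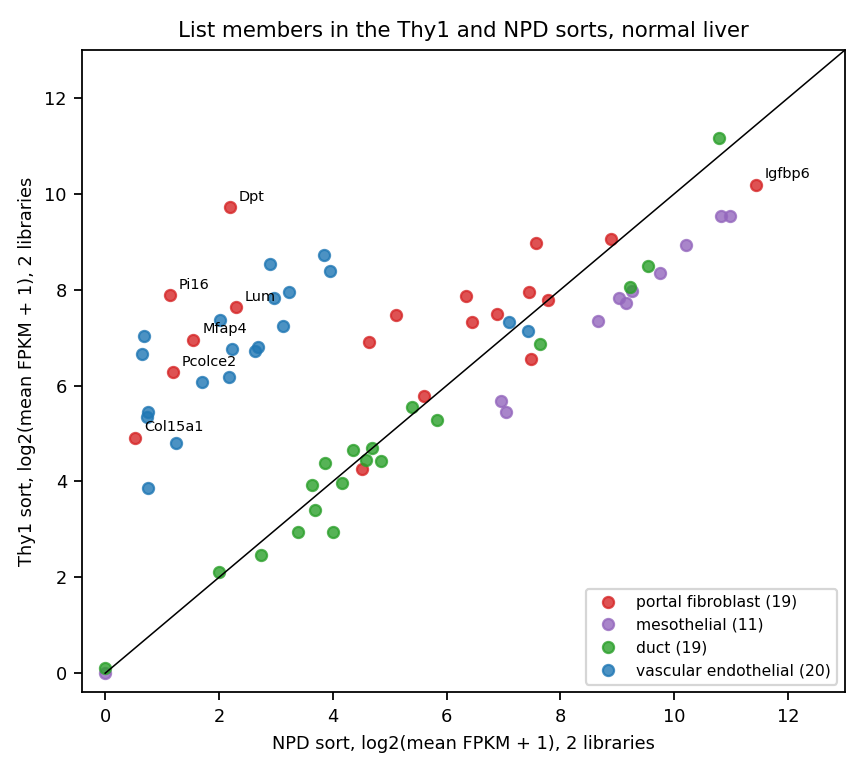
Mean level in the Thy1 sort (y axis) against the NPD sort (x axis), both as log2(mean FPKM + 1) of 2 libraries, for the genes of 4 lists, with the line of equal level. The 10 mesothelial genes tested lie below the line at 32.2% to 43.1% of NPD, and Dpt, Pi16, Mfap4 and Col15a1 lie far above it.

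Duct genes were unevenly spread over the 2 Thy1 libraries. All 17 duct genes tested, of 19 on the list, were called higher in Thy1, with a median of -3.22, but 4 passed in the fit of the 4 libraries alone. Epcam, an adhesion protein of bile duct epithelium, was at 5.78 and 86.0 FPKM in Thy1 and listed at 0 in HSC, with a mean of 377 in BEC. Sox9, the duct transcription factor, was at 2.09 and 27.1 in Thy1 and listed at 0 in HSC. Spp1, which encodes osteopontin, was at 244 and 4340.4 in Thy1, at 30.9 and 0.292 in HSC and at 17562 in BEC. Over 18 duct genes at 1 FPKM or more in Thy1, 1 was higher in library 1, and the median of library 1 minus library 2 was -2.82. Thy1 library 1 held a median of 1.81% of the BEC level and library 2 held 22.8%. Epcam, Sox9 and Spp1 did not pass in the fit of the 4 libraries alone (adjusted p 0.093, 0.15 and 0.093).

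A pair of keratins did not follow the other duct genes. Krt19 was at 390.1 and 328 FPKM in Thy1 and Krt7 at 216 and 315, so the Thy1 libraries were alike in both. Their means were 746 and 594 in NPD and 451 and 144 in BEC. The Thy1 mean was 48.1% of NPD for Krt19 and 44.7% for Krt7, close to the mesothelial band, and both passed in the fit of the 4 libraries alone (adjusted p 0.0029). Keratins 7 and 19 are known from mesothelium as well as from ducts, and which cells held them here was not tested.

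Vascular endothelial genes were called higher in Thy1, but both sorts held them. Of 20 vascular endothelial genes, all tested, 11 were called higher in Thy1 and 0 higher in HSC, with a median of -2.24. In the fit of the 4 libraries alone 1 passed in each direction (Tie1 higher in Thy1, Plvap higher in HSC). Pecam1, an adhesion molecule of endothelial junctions, was at 251 and 246 FPKM in Thy1, at 10.4 and 54.8 in HSC and at 768 in EC (difference -3.31, adjusted p 0.014). Tie1, an endothelial receptor kinase, was at 175 and 156 against 7.003 and 28.4 (difference -3.44, adjusted p 0.0041). Cdh5, the endothelial cadherin, was at 178 and 122 against 12.4 and 75.1 and did not pass (adjusted p 0.093). In all 3 genes HSC library 2 held more than HSC library 1. Leaving out HSC library 1 left 1 of the 20 called, leaving out Thy1 library 1 left 7 and leaving out Thy1 library 2 left 6, and Pecam1 then stood at adjusted p 0.20, 0.056 and 0.061. Tie1 stood at 0.083 without HSC library 1 and at 0.12 with library weights, with which 0 of the 20 passed. The list was at a median of 32.2% and 34.0% of its EC level in the Thy1 libraries and at 2.33% and 11.9% in the HSC libraries. Of 9 sinusoidal endothelial genes tested, Clec1b was called higher in HSC and Stab1 and Lyve1 higher in Thy1, with a median of 0.08, and none of the 9 passed in the fit of the 4 libraries alone or with library weights. Without Thy1 library 1 the adjusted p was 0.12 for Clec1b and 0.22 for Stab1, and it was 0.23 for Clec1b without HSC library 2 and 0.33 for Stab1 without HSC library 1. That list summed to 243 and 1317 FPKM in HSC and to 1252 and 1054 in Thy1, so the sums of the 2 sorts overlapped.

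For another 2 endothelial genes both HSC libraries were above both Thy1 libraries. Plvap, the diaphragm protein of fenestrated vessels, was at 1377 and 1702 FPKM in HSC and at 426 and 313 in Thy1, with 525 in EC (difference 2.06, adjusted p 0.059). It passed after upper-quartile scaling (adjusted p 0.030). Eng, a co-receptor for BMP9 and BMP10, was at 411 and 463 against 271 and 397 (adjusted p 0.79).

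Lymphatic endothelial genes, a list added after the values were seen, stood apart in Thy1 library 1. Mmrn1, a multimerin of lymphatic vessels, was at 1238 and 34.1 FPKM in Thy1 and at 0.392 and 0 in HSC. Lyve1, the hyaluronan receptor of lymphatic and sinusoidal endothelium, was at 699.7 and 36.3 in Thy1 and at 1.26 and 30.4 in HSC. Flt4, the receptor for VEGF-C, was at 396 and 45.9 against 5.30 and 54.4, where Thy1 library 2 lay below HSC library 2. All 5 genes tested were called higher in Thy1, and all 5 were higher in Thy1 library 1 than in library 2, with a median of 3.08. In the fit of the 4 libraries alone 2 passed, Prox1 and Pdpn, both of which were also high in another sort (Prox1 at 152 in BEC and Pdpn at 362 in NPD). Without Thy1 library 1 the adjusted p was 0.28 for Flt4 and 0.21 for Lyve1, and without HSC library 1 it was 0.31 and 0.20.

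Other cell types left smaller traces. Of 11 Kupffer and macrophage genes, 1 was called, Timd4, higher in HSC (7.63 and 23.7 against 3.16 and 1.27 FPKM), and it lost the call without HSC library 2 (adjusted p 0.12) or Thy1 library 2 (0.099). The Kupffer list summed to 97.7 FPKM in HSC library 1 and 1354 in HSC library 2, and to 209.7 and 126 in Thy1, against 25170.6 in KC. All 11 genes were higher in HSC library 2 than in library 1. T cells also carry Thy1 on their surface, but the 10 T-cell genes summed to 19.98 and 8.95 FPKM in Thy1, against 2196 in blood cells. Their median was 0.596% and 0.466% of blood. Of 9 Schwann and glial genes, 2 of the 3 tested were higher in Thy1, Mbp and Scn7a. Sox10, Foxd3 and Gfra3 of that list were listed at 0 in all 4 libraries. The list summed to 40.6 and 48.4 FPKM in Thy1 and to 0 and 2.49 in HSC. Of 8 mitosis genes tested 0 differed by limma, and the list summed to 107 FPKM in HSC library 2 and to 3.72, 11.8 and 28.1 in the others.

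All called genes were also classed by their level in the other normal sorts. A gene was put in the class of its own sort if its mean there was at least 2 times that in each of the 8 other sorts, and otherwise in the class of the other sort with the highest mean. Of the 990 genes higher in HSC, 371 (37.5%) were in their own class, and the next class was blood and Kupffer with 290 (29.3%). Of the 3880 genes higher in Thy1, 183 (4.72%) were in their own class, 1222 (31.5%) were duct, 865 (22.3%) NPD, 821 (21.2%) blood and Kupffer, 485 (12.5%) endothelial and 304 (7.84%) hepatocyte. The own classes depend on the ratio: with 1 in place of 2 they held 643 and 440 genes, and with 4 they held 235 and 114. From the calls of the 4 libraries alone they held 223 and 85, and of the genes higher in Thy1 there, 371 were NPD and 230 duct. The class names a reference level and not the cell of origin.

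**Figure D4:**
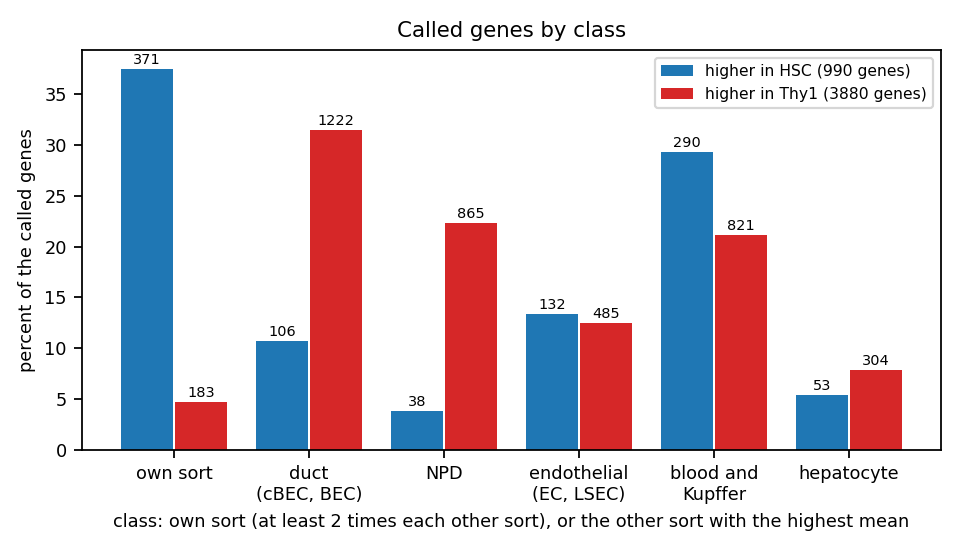
Percent of the genes called higher in HSC (blue, 990 genes) and higher in Thy1 (red, 3880 genes) that fall in each class, with the number of genes above each bar. The own class is the tallest HSC bar (371 genes) and the shortest Thy1 bar (183 genes).

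The extracellular matrix was next read by family, with the share of NPD given for genes higher in Thy1. Fibrillar collagens, which build the load-bearing fibres, were called in both directions. Of 9 tested, 1 was higher in HSC and 2 higher in Thy1, a share near the 36.8% called over all genes, and the median of -0.54 stood beside -0.37 over all genes. The 1 higher in HSC, Col24a1, was low in absolute terms, at 10.7 and 7.53 FPKM against 0.0860 and 0.125 (difference 3.18, SE 0.15, adjusted p 1.3e-12). Among 17 other collagens 3 were higher in HSC and 6 in Thy1, against 7.48% and 29.3% of all genes (median -0.64, and -0.01 after quantile normalization). Col14a1, which lies on the surface of collagen fibrils, was at 849 and 1604 in HSC and at 276 and 184 in Thy1 (difference 2.37, adjusted p 0.0054), with a call lost without HSC library 2 (0.056), without Thy1 library 2 (0.058) or with library weights (0.22). Col6a5 and Col6a6, 2 alternative chains of type VI collagen, were listed at 0 in HSC and stood at 28.3 and 9.27 and at 18.6 and 9.59 in Thy1, while Col6a4 was higher in HSC, at 4.14 and 6.51 against 0.172 and 0.104.

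Basement membrane genes were mostly higher in Thy1, with 15 of 23 called higher there and 4 higher in HSC (median -1.63). In the fit of the 4 libraries alone 10 and 1 passed. The chains of type IV collagen divided. The common chains Col4a1 and Col4a2 were higher in HSC, at 344 and 805 FPKM against 182 and 113 and at 197 and 477 against 99.9 and 61.9 (differences 1.86 and 1.95, adjusted p 0.00054 and 0.00045), and neither passed in the fit of the 4 libraries alone (0.099 and 0.095). The tissue-restricted chains were at or near 0 in HSC. Col4a5 was at 42.7 and 36.4 in Thy1 and at 0 and 0.481 in HSC, Col4a6 at 22.3 and 12.3 against listed values of 0, and Col4a3 and Col4a4 were also listed at 0 in both HSC libraries. The Thy1 means of these 4 chains were 45.4% to 66.0% of NPD. Lama1, described above, was the laminin chain that most favoured HSC. Lamc3, a laminin gamma chain, was at 16.1 and 43.2 in Thy1 and listed at 0 in HSC, with 248 in BEC.

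Elastic-fibre genes, 6 of which are also on the portal fibroblast list, had 11 of 22 called higher in Thy1 and 3 higher in HSC (median -1.62). Loxl1, which cross-links elastin, was at 102 and 87.1 FPKM in Thy1 and at 13.5 and 14.1 in HSC (difference -2.69, adjusted p 0.00023, and 0.062 with library weights). Emilin1, a glycoprotein at the elastin surface, went the other way, at 416 and 700.1 in HSC and at 51.8 and 41.1 in Thy1 (difference 3.52, SE 0.72, adjusted p 0.0005). Efemp2, also called fibulin-4, was at 193 and 274 against 52.6 and 75.4 (difference 1.85, adjusted p 0.00012). Thus 2 of the 3 genes higher in HSC encode proteins that bind elastin, while elastin itself was higher in Thy1.

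Small leucine-rich proteoglycans, which space collagen fibrils, also divided, with 3 of 11 higher in HSC and 6 in Thy1. Prelp was at 2005 and 1717 FPKM in HSC and at 574 and 200.3 in Thy1 (difference 2.45, SE 0.38, adjusted p 2.2e-05, and 0.063 in the fit of the 4 libraries alone). Fmod, or fibromodulin, was listed at 0 in HSC and was at 468 and 243 in Thy1, yet its Thy1 mean was 37.7% of NPD, inside the mesothelial band. Aspn, or asporin, was listed at 0 in HSC and was at 20.6 and 34.4 in Thy1, with 0.539 in NPD. So of these 2 genes 1 followed the mesothelial ratio and 1 did not.

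Among 20 proteases and inhibitors of the matrix, 5 were higher in HSC and 7 in Thy1, against 7.48% and 29.3% of all genes. Timp3, an inhibitor bound to the matrix, was at 641 and 392 FPKM in Thy1 and at 42.5 and 56.5 in HSC (difference -3.33, adjusted p 4.3e-07), with 710.2 in EC. Timp1, induced by injury, was at 31.9 and 60.1 against 4.47 and 4.28, and its Thy1 mean was 42.7% of NPD. Mmp2, the gelatinase, was at 97.8 and 167 in HSC and at 101 and 129 in Thy1, where the sorts overlapped (adjusted p 0.87).

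The signalling ligands were read in 2 groups. Of 20 BMP and TGF-beta ligands and antagonists, 4 were higher in HSC and 11 in Thy1 (median -1.84). All 4 higher in HSC were ligands of the BMP family. Beside Bmp10 and Gdf2, Bmp5 was at 678 and 444 FPKM in HSC and at 3.44 and 3.31 in Thy1 (difference 6.97, SE 0.43, adjusted p 3.8e-11), and Gdf10 at 224 and 199 against 48.0 and 56.5 (difference 1.998, adjusted p 0.0063). Gdf10 did not pass with library weights (0.20) or a pseudocount of 0.1 (0.086). The 11 higher in Thy1 included the secreted antagonists Grem1, Chrd, Chrdl1, Nbl1 and Fst. Chrd, or chordin, was at 17.8 and 15.1 in Thy1 and at 0.509 and 0 in HSC. Grem1 was at 4.11 and 5.18 in Thy1 and at 0 and 0.325 in HSC, with 0.121 in NPD, so that it was at least 2 times above every other sort. Chrdl1 and Nbl1 lay inside the mesothelial band, at 38.6% and 39.8% of NPD.

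Of 38 other growth factors and chemokines, 5 were higher in HSC and 22 in Thy1 (median -1.88), against 7.48% and 29.3% of all genes. In the fit of the 4 libraries alone 4 and 10 passed. Cxcl12, the chemokine that binds Cxcr4, was at 1985 and 1930.3 FPKM in HSC and at 111 and 70.3 in Thy1 (difference 4.45, SE 1.05, adjusted p 0.0020). Il34, a ligand of the macrophage receptor Csf1r, was at 205 and 78.4 against 4.43 and 5.76 (difference 4.40, adjusted p 2.3e-09). The Thy1 libraries were higher for the inflammatory chemokines Ccl11 and Cxcl1 and for the cytokine Il6. Ccl11, which draws eosinophils, was at 38.5 and 164 in Thy1 and at 8.43 and 3.33 in HSC, with 0.162 in NPD. Cxcl1, which draws neutrophils, was at 293 and 279 against 21.1 and 3.86. Il6 was at 21.5 and 47.0 in Thy1 against listed values of 0 in HSC, with a mean of 36.8 in KC. With library weights Cxcl12 and Cxcl1 did not pass (adjusted p 0.14 and 0.091), and Ccl11 did not in the fit of the 4 libraries alone (0.057).

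Several fibroblast growth factors were at or near 0 in HSC. Fgf7 and Fgf10, which act on epithelium, were at 2.01 and 5.21 and at 1.44 and 3.14 FPKM in Thy1 and at or under 0.0712 in HSC, and neither passed in the fit of the 4 libraries alone (adjusted p 0.076 and 0.085). Fgf18, at 24.6 and 16.55 in Thy1, lay inside the mesothelial band. Rspo1, at 223 and 229, is on the mesothelial list and helps to set that band, so it lies inside by construction. Rspo3, the Wnt enhancer of the central vein, was at 264 and 244 in HSC and at 27.6 and 294 in Thy1, so that the 2 Thy1 libraries lay on either side of HSC (adjusted p 0.33).

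Receptors for vasoactive and neural signals favoured HSC. Of 26 tested, 14 were higher in HSC and 7 in Thy1, against 7.48% and 29.3% of all genes. The median of 2.39 was the highest of the function lists. Ngfr, Pth1r, Vipr1 and Ednrb are also on the stellate list, so the 2 lists are not independent. The endothelin receptor Ednra was at 262 and 220.4 FPKM in HSC and at 2.24 and 2.10 in Thy1 (difference 6.25, SE 0.36, adjusted p 1.3e-11). Agtr1a, the receptor through which angiotensin II contracts vessels, was at 852 and 459 against 34.8 and 28.2 (difference 4.27, SE 0.56, adjusted p 2.2e-06). Gucy1a3 and Gucy1b3, the 2 subunits of the nitric oxide receptor guanylate cyclase, were at 443 and 333 and at 485 and 315 in HSC, against 41.1 and 10.7 and 38.02 and 6.83 in Thy1. Receptors of opposite effect on tone were thus high in the same libraries. S1pr1 and Npr1, higher in Thy1 at 124 and 38.4 and at 145 and 166, had their highest other level in EC, at 140.4 and 286, and S1pr1 did not pass in the fit of the 4 libraries alone (adjusted p 0.091). The neurotrophin receptors Ntrk2 and Ntrk3 were listed at 0 in HSC and were at 10.9 and 6.39 and at 3.28 and 3.76 in Thy1.

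Transcription factors of mesenchyme split into 2 sets. Of 35 tested, 10 were higher in HSC and 19 in Thy1 (median -1.20), against 7.48% and 29.3% of all genes. Beside Lhx2 and Hand2, Tcf21 was at 623 and 581 FPKM in HSC and at 17.0 and 21.4 in Thy1 (difference 4.91, adjusted p 4.9e-07). Tbx20 was at 60.3 and 62.1 against 3.63 and 2.65, Heyl, a Notch target, at 113 and 76.3 against 1.17 and 2.14, and Snai2 at 147 and 59.7 against 1.43 and 4.79. Foxf1, a hedgehog-responsive forkhead factor, was at 115 and 91.8 against 20.3 and 12.6. In Thy1 the factors that were at least 2 times above every other sort were low in absolute terms. Ebf2 was at 5.15 and 10.8, Osr2 at 3.73 and 6.34 and Prrx2 at 3.34 and 4.77, and all 3 were listed at 0 in HSC. Osr1 was at 82.0 and 47.9 in Thy1 and at 0.453 and 0.0913 in HSC, with 67.7 in NPD. Barx1, Scx and Tbx18 lay inside the mesothelial band. Wt1 is on the mesothelial list and helps to set that band, so it lies inside by construction.

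Retinoid genes were called in both directions. Of 16 tested, 5 were higher in HSC and 2 in Thy1, against 7.48% and 29.3% of all genes, and the median of -0.01 was 0.58 after quantile normalization and 0.29 after upper-quartile scaling. Beside Lrat, Bco1, which cleaves beta-carotene into retinal, was at 156 and 87.4 FPKM in HSC and at 0.370 and 0.120 in Thy1 (difference 6.57, SE 0.40, adjusted p 3.0e-11). Rxra, the retinoid X receptor, was at 87.5 and 129 against 32.4 and 29.1 (difference 1.76, adjusted p 2.7e-05). Of the enzymes that make retinoic acid, Aldh1a2 was listed at 0 in HSC and was at 80.4 and 44.2 in Thy1, with 124 in NPD, and Aldh1a1 was at 112 and 124 against 141 and 141 (adjusted p 0.84). The lipid-droplet coat Plin2 was at 180.1 and 118 against 21.3 and 39.7 and did not pass (adjusted p 0.10).

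Complement genes divided by component. Of 17 tested, 4 were higher in HSC and 6 in Thy1, against 7.48% and 29.3% of all genes (median -0.23, and 0.15 after upper-quartile scaling). The 4 higher in HSC were Colec10 and Colec11, Masp1, the protease that works with them, at 526 and 629.6 FPKM against 5.99 and 10.1, and C6, a component of the membrane attack complex, at 71.5 and 101 against 0.165 and 0. C7, the next component of that complex, was higher in Thy1, at 162 and 147 against 9.14 and 13.9 (difference -3.65, SE 0.78, adjusted p 0.00075, and 0.058 with library weights), and was at 4.62 in NPD. C3 was listed at 0 in HSC and was at 4806 and 2303 in Thy1, but its Thy1 mean was 37.1% of NPD, inside the mesothelial band. C3 is abundant in hepatocytes, and genes abundant there are often listed at exactly 0 in the other sorts of this table.

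Immediate early genes, which respond to cell handling within minutes, were lower in HSC than in Thy1 throughout. All 16 were called higher in Thy1, with a median of -3.63, and 11 passed in the fit of the 4 libraries alone. Fos was at 112 and 31.9 FPKM in HSC and at 1712 and 1510.3 in Thy1. Egr1 was at 51.1 and 16.6 against 1603 and 1296 (difference -5.57, SE 0.52, adjusted p 1.8e-08). The list summed to 1149 and 648 FPKM in HSC, to 10018 and 8072 in Thy1 and to 8293 in NPD. The inflammatory genes Il6, Cxcl1 and Ptgs2, described above, were also higher in Thy1. After PH the HSC minus Thy1 median of the immediate early list was -0.83, with Il6 at -5.06 and Ptgs2 at -5.27. The part of cell handling in these genes was not tested.

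The same sorts after PH gave the comparison in other libraries. There, 4602 of 12850 tested genes passed (35.8%), 1188 (9.25%) higher in HSC and 3414 (26.6%) higher in Thy1, with a median of -0.32. After quantile normalization 2375 were higher in HSC and 2390 in Thy1, and after upper-quartile scaling 1709 and 2497. Of the 371 genes in the HSC own class, 347 could be tested after PH, and 306 (88.2%) were called higher in HSC again. Of the 183 in the Thy1 own class, 107 could be tested and 82 (76.6%) were called higher in Thy1 again. The share was 82.1% for the endothelial class (391 of 476), 69.3% for NPD (508 of 733) and 52.3% for duct (558 of 1066). Over all genes it was 65.2% of those higher in HSC and 59.0% of those higher in Thy1. Genes without at least 1 FPKM in at least 2 of the compared libraries after PH were not tested, and the shares leave them out. Penk was among these, at 29.6 and 0.676 FPKM in Thy1 after PH and listed at 0 in HSC.

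After PH 18 of 19 stellate genes were called higher in HSC (median 5.19). Lrat was at 324, 452 and 268 FPKM in HSC and at 2.08 and 5.80 in Thy1, and Reln at 557, 615 and 494 against 13.005 and 9.47. Neither Thy1 library after PH therefore held the Reln level of normal Thy1 library 1. Cygb passed there, at 253, 255 and 239.9 against 74.1 and 22.4 (difference 2.58, SE 0.44, adjusted p 5.0e-05). Mural genes were called higher in HSC in 8 of 10, and mesothelial genes higher in Thy1 in 10 of 10.

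Of the portal fibroblast genes, 15 of 19 were called higher in Thy1 after PH, with a median of -3.68, but the 2 Thy1 libraries were far apart. Dpt was at 354 and 14.5 FPKM in Thy1 and at 1.69, 0 and 2.14 in HSC. Clec3b was at 215 and 14.9 in Thy1 and listed at 0 in all 3 HSC libraries. The list summed to 3407 and 1082 in the 2 Thy1 libraries. Lum, uncalled in normal liver, was called higher in HSC after PH, at 1236, 365 and 420.0 against 133 and 8.57 (difference 4.01, SE 0.93, adjusted p 0.0014). The vascular endothelial genes were also called, with 18 of 20 vascular genes called higher in Thy1. Pecam1 was at 315 and 569.6 in Thy1 and at 5.04, 1.44 and 4.10 in HSC, and Plvap was called higher in HSC, at 2507, 2960.1 and 3444 against 379 and 854 (difference 2.37, adjusted p 9.9e-06).

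Several differences of normal liver were not called after PH. C7 was at 44.5, 16.2 and 13.9 FPKM in HSC and at 99.99 and 4.18 in Thy1 (adjusted p 0.99). Timp2, which passed in normal liver at 126 and 169 against 946 and 556 (adjusted p 0.0088, and 0.080 without Thy1 library 1 or 0.065 without HSC library 1), stood at 108, 183 and 175 against 278 and 87.8 (adjusted p 0.93). Immediate early genes were called in 5 of 16, all higher in Thy1, against 26.6% of all genes called higher there after PH. Egr1 was at 75.5, 119 and 393 in HSC and at 349 and 292 in Thy1 (adjusted p 0.34). Whether differences changed with PH was tested as the difference between the contrasts, in which 1357 of 13958 genes (9.72%) passed, but 2 passed when only the 4 groups compared entered the fit. Egr1 passed it (adjusted p 0.0040, but 0.22 with only the 4 groups and 0.24 with library weights). C7 passed too (0.023), but not with only the 4 groups (0.50), with library weights (0.41) or with a pseudocount of 0.1 (0.21). Leaving out 1 library gave C7 an adjusted p of 0.47 without PH Thy1 library 2, and of 0.053 to 0.065 without PH HSC library 1, HSC library 1 or either Thy1 library of normal liver. Timp2 did not pass (0.053), but did without PH Thy1 library 1 (0.011) or PH HSC library 1 (0.035). Lum did not pass (0.21), but did without PH Thy1 library 1 (0.021). Col1a1 was called after PH too (adjusted p 0.024), and as a share of Dcn it was 0.195%, 0.620% and 0.984% in HSC and 28.6% and 40.2% in Thy1 after PH.

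**Figure D5:**
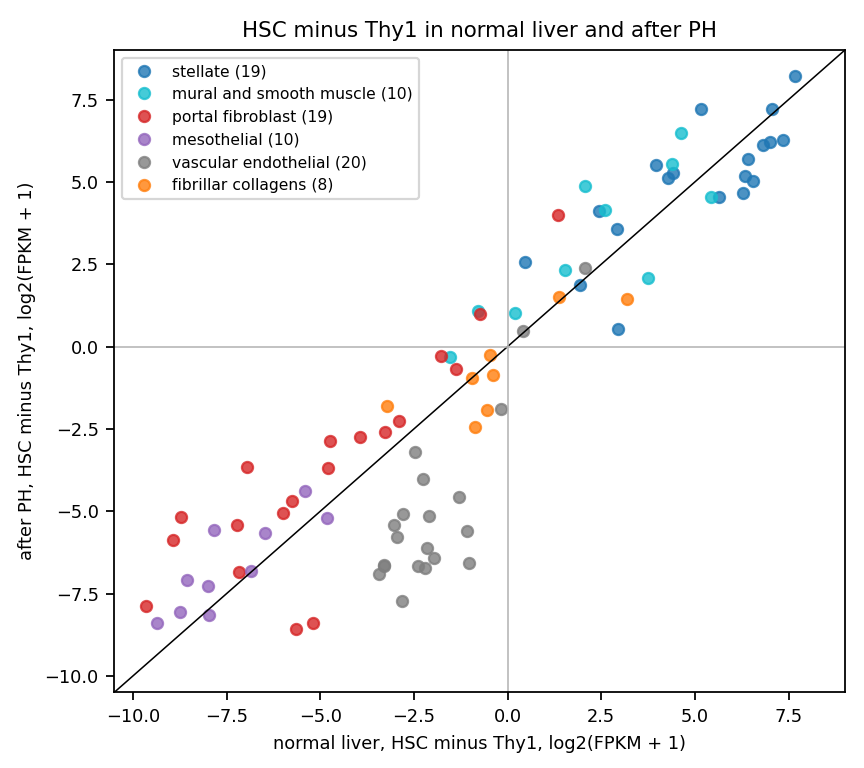
Log2(FPKM + 1) difference, HSC minus Thy1, in normal liver (x axis, 2 and 2 libraries) and after PH (y axis, 3 and 2 libraries) for genes of 6 lists, with the line of equal difference. The stellate genes lie in the upper right and the mesothelial genes in the lower left, and the vascular endothelial list has medians of -2.24 in normal liver and -5.69 after PH.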

How the data were processed

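The authors deposited 1 table of FPKM values with 36141 transcript rows for 55 libraries, and depth cannot be recovered from it. Cells were sorted into TRIzol and standard Illumina libraries were made from total RNA, per the labels' protocols. The submitters' processing notes name CASAVA 1.8.2, Bowtie 1.0.0 and the build mm9 without their roles, and the counting tool and its use of strand are not given in the sources used here. Overlapping and near-identical genes can therefore share reads.

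Where a symbol had several rows, the one of highest average level across the 55 libraries stood for it, which left 24478 symbols. Values were tested as log2(FPKM + 1) with limma 3.58.1 in R 4.3.3 (mean-variance trend, robust variances), and p-values were adjusted by Benjamini-Hochberg over all genes with at least 1 FPKM in at least 2 of the 4 libraries compared. The normal fit held 27 libraries in 10 groups, the PH fit 28, and the test of the difference between them all 55. A library titled as a PH cBEC replicate carries the treatment label normal and was grouped by its title. It enters the PH fit and the fit of all 55 through the shared spread only. The test was checked on simulated data in which a gene had the same spread in every sort. The real sorts differed in spread, which that check does not cover. Other steps used Python 3.11.15 and pandas 2.3.3, and figures matplotlib 3.10.9.

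The comparison, the 513 entries of 30 gene lists (512 found) and the tests were chosen with earlier results of these data known. Genes named in the text are members of these lists, genes with adjusted p under 0.05, a difference of at least 1 and no overlap of libraries among the 15 largest of each own class or the 5 largest of each other Thy1 class, and for the difference between contrasts the 3 smallest p in each direction. Predicted genes, small RNAs, receptor segments and genes at 10 FPKM or more in hepatocytes were left out, apart from list members. The alternatives tried are in the closing section. The library weights, the 4-group and leave-one-out fits of the difference between contrasts, the lymphatic list and the percent of NPD were added after values were seen. Some genes of these lists are counted but not reported by name here.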

Additional observations from a re-analysis of the deposited data

Results flagged for a closer look

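The difference between the HSC and Thy1 sorts was itself compared between PH and normal liver, and 1357 genes passed that test (adjusted p under 0.05, limma), 825 with a larger HSC minus Thy1 value after PH and 532 with a smaller one. With library weights 126 passed, with only the 4 groups in the fit 2, and without PH Thy1 library 2 582. The 6 genes below have the smallest p in each direction, and of them 1, Serpinb2, passed with only the 4 groups in the fit.

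Bcas1 was at 4.51 and 4.47 FPKM in the normal Thy1 libraries and at 0 and 0.0303 after PH, with at most 0.132 in any HSC library, and its difference of differences was 2.38 on the log2(FPKM + 1) scale. Ghrh, the growth hormone releasing hormone, was at 8.32 and 6.69 in normal Thy1 and at 0.282 and 0 after PH, and was listed at 0 in all HSC libraries (2.90). Stmn4, a tubulin-binding stathmin, was at 2.87 and 4.62 in normal Thy1 and at 0.212 and 0.131 after PH (1.99).

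Fam162b was at 8.33 and 4.53 FPKM in the normal HSC libraries and listed at 0 in the 3 HSC libraries after PH (-2.84). Elfn1 was at 1.14 and 2.96 in normal HSC and at most at 0.265 after PH, while in Thy1 it was at 0.204 and 0.145 in normal liver and at 3.22 and 2.18 after PH (-3.00). Serpinb2, a plasminogen activator inhibitor, was at 0.0860 and 0.104 in normal Thy1, at 170.1 and 214 in Thy1 after PH, and listed at 0 in all HSC libraries (-7.45).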

How the results depend on the processing

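The calls rest on a spread shared with the other sorts. With only the 2 groups in the fit, 1263 genes were called in normal liver (317 higher in HSC, 946 in Thy1) and 2378 after PH (569 and 1809). With library weights the counts were 2273 (449 and 1824) in normal liver, 767 higher in HSC after PH, and 126 (65 and 61) for the difference between contrasts, which fell to 2 (1 and 1) with only the 4 groups and was 749 (397 and 352) with a pseudocount of 0.1. Scaling moved the balance: after quantile normalization 2349 genes were higher in HSC and 2461 in Thy1 in normal liver, with 2375 higher in HSC after PH, and after upper-quartile scaling 1721 were higher in HSC in normal liver. Leaving out 1 library gave 755 to 1116 genes higher in HSC and 2717 to 4525 higher in Thy1 in normal liver, 722 to 1260 higher in HSC after PH, and 582 to 1711 for the difference between contrasts (278 to 1081 larger, 304 to 899 smaller).

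The own class held 643 HSC and 440 Thy1 genes at a ratio of 1, and 235 and 114 at 4. With NPD counted as duct, 2087 genes higher in Thy1 were duct. From calls of the 4 libraries alone, the classes held 223 (own, HSC), 85 (own, Thy1), 230 (duct), 371 (NPD), 84 (endothelial), 89 (blood and Kupffer) and 87 (hepatocyte). Of the duct list 4 passed there. Of the vascular list 1 passed there, 4 with a pseudocount of 0.1, 0 with library weights, and 1 to 13 when 1 library was left out.

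Whether the replicate numbers pair the samples is not known. The deviations of same-numbered libraries of normal liver correlated at -0.0754, which with 2 libraries a sort cannot decide it. With the replicate numbers as a block 4728 genes were called in normal liver. In the fit of the 2 groups alone, with that block, 1827 (395 and 1432) were called in normal liver and 1652 (395 and 1257) after PH. With unknown depth and 2 libraries a sort, low genes and values listed at 0 are the least precise. Among the genes named, 25 lost their call in normal liver with library weights, 24 with only the 2 groups in the fit and 6 to 12 when 1 library was left out, and no called gene named changed sign in any fit. The causes of these shifts were not tested.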
